A study of Mus musculus with 2 samples.

Results

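Epha4, Wnt6, Wnt10a and Ihh lie on mouse chromosome 1, and the CTCF sites around them were read out from chr1:74318466-78011663 of the mm9 assembly, the stretch of 3.69 Mb that runs from Wnt6 to Epha4 with 500 kb added on each side. These 4 of 22367 protein-coding genes were taken as a set because of their shared locus, and every deposited CTCF peak with its summit in the stretch was counted, 77 of 33788. The sources were 2 ChIP-seq libraries of R1/E mouse embryonic stem cells (ESCs), grown with LIF and serum, 1 made with a goat antibody against eGFP and 1 with goat IgG of the same isotype. Both came from the same tagged line, in which a stably integrated BAC carries CTCF with a C-terminal LAP tag that contains GFP, so the control carries the transgene too, and resistant clones had been sorted for GFP-positive cells. The labels call the control IgG and also input DNA, and the second reading would turn every ratio below into a ratio to input. Chromatin was crosslinked with formaldehyde and sonicated, and the CTCF library held 8391191 tags and the IgG library 7988889 tags of 35 bp, with 0 repeated positions. With 1 library per antibody there is no replicate, and all intervals below cover counting error only.

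CTCF is a zinc-finger protein that binds a long, asymmetric DNA motif and halts the extrusion of chromatin loops by cohesin. Boundaries between topologically associating domains often carry CTCF sites whose motifs point toward each other across the domain. Epha4 encodes an ephrin receptor tyrosine kinase that guides axons and is expressed in the limb bud, Wnt6 and Wnt10a encode secreted Wnt ligands, and Ihh encodes the hedgehog ligand that paces cartilage growth at the growth plate. Pax3, the next gene past Epha4, encodes a paired-box transcription factor of muscle and neural crest precursors. The locus is known for structural variants that remove or move domain boundaries and are associated with limb malformations. Contacts between chromatin segments were not measured in these files, so domains themselves are not described, and the cells are ESCs and not limb bud.

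In the matrix used here the motif reads TGGCCACCAGGGGGCACTA when it is called forward, that is on the plus strand, and it is called reverse when it reads so on the minus strand. A summit was given a motif where the best match within 150 bp had a probability of at most 1e-05 in random sequence. The motifs on both sides of Epha4 are shown because their directions set out the pattern of the gene. Each is written 5′ to 3′ along the strand named, with the 19 motif bases in capitals and 5 flanking bases on each side in lower case, and the coordinates are those of the capitals. Toward Slc4a3, the nearest protein-coding gene on that side, they were these.
Summit 75594416, chr1:75594401-75594419, minus strand: acactCTGCCACTAGGGGGCAGCAtatcc
Summit 75605739, chr1:75605738-75605756, minus strand: acttgGTCCCAGCAGGTGGTGCTCtattt
Summit 75650289, chr1:75650312-75650330, plus strand: tccttTGGCCACCAGGTGGCGCCAtcaca
Summit 75922593, chr1:75922486-75922504, plus strand: actcaGTGCCGACAGGGGGCGCCAcagct
Summit 75952600, chr1:75952596-75952614, plus strand: cacagAGGCCAGGAGAGGGCATCGgatct

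On the side of the Epha4 start, toward Pax3, these 7 motifs followed.
Summit 77513113, chr1:77513017-77513035, minus strand: gcatcTGGCCGGCAGGTGGCGCGGttggt
Summit 77586095, chr1:77586197-77586215, minus strand: acttcATTCCACAAGGGGGCACCTgacag
Summit 77801911, chr1:77801918-77801936, minus strand: cacagCAGCCAGAAGAGGGCATTAgatcc
Summit 77927502, chr1:77927437-77927455, minus strand: cacagAAGCCAGAAGAGGGCACTGgatcc
Summit 77939936, chr1:77939856-77939874, plus strand: tctctTGGCCACTAGAGGGCGAACtttcc
Summit 77969174, chr1:77969123-77969141, minus strand: cttacAAACCTCCAGGTGGCGCTGttgct
Summit 77975474, chr1:77975454-77975472, plus strand: cttcaCAACCACTAGATGGCGCCAactgt

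Around the Wnt genes and Ihh, the motifs nearest to the gene bodies are shown for the same comparison. The first lies in a UTR of Wnt6 and is given without its flanks.
Wnt6 end, chr1:74831234-74831252, plus strand: ATTCCAGCAGGGGGCGCTG
Upstream of Wnt10a, chr1:74834590-74834608, plus strand: caaatAGACCACCAGAGGGCGTCCaggat
Downstream of Wnt10a, chr1:74854873-74854891, minus strand: aatccTCACCAACAGAGGGCGCCAtgtcc
Downstream of Ihh, chr1:74973464-74973482, plus strand: cacaaTGGCCACCAGGGGACAGCAgacac
Inside Ihh, chr1:74995576-74995594, plus strand: aaaggTGCCCAGTAGGTGTCACCGcagcc
Upstream of Ihh, chr1:75047264-75047282, minus strand: actctCAACCACCAGGGGACGCTCtgttc

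Over the whole stretch there were 20.8 peaks per Mb, against 11.1 on chromosome 1 and 12.7 over the assembled chromosomes. Summit heights, the number of overlapping tags at the summit as given by MACS, ran from 7 to 37 with a median of 12. The deposited scores, on a scale where 50 stands for a p-value of 1e-05, ran from 50.54 to 464.97 with a median of 108.2. Heights were thus much like those of chromosome 1, whose median was also 12, while peaks stood closer together. Of the 77 summits, 66 passed a recount of the tags at a Poisson probability of at most 1e-05 (85.7%), and over all deposited summits 85.6% did, so the firmness of these sites was that of the list as a whole.

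A motif was found at 48 of the 77 summits, 62.3% (95% exact interval 50.6 to 73.1), against 72.6% of all summits. The background lies just inside the interval. Forward and reverse motifs were about equally frequent, with 23 forward and 25 reverse. Among the 47 neighbouring pairs of motifs, 11 were convergent, 12 divergent and 24 tandem, and over the genome the convergent share was 25%, so the set as a whole had no excess of convergent neighbours. Summits with a motif had a median height of 14 and the 29 without one a median of 10, and over all summits these medians were 14 and 11.

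**Figure D1:**
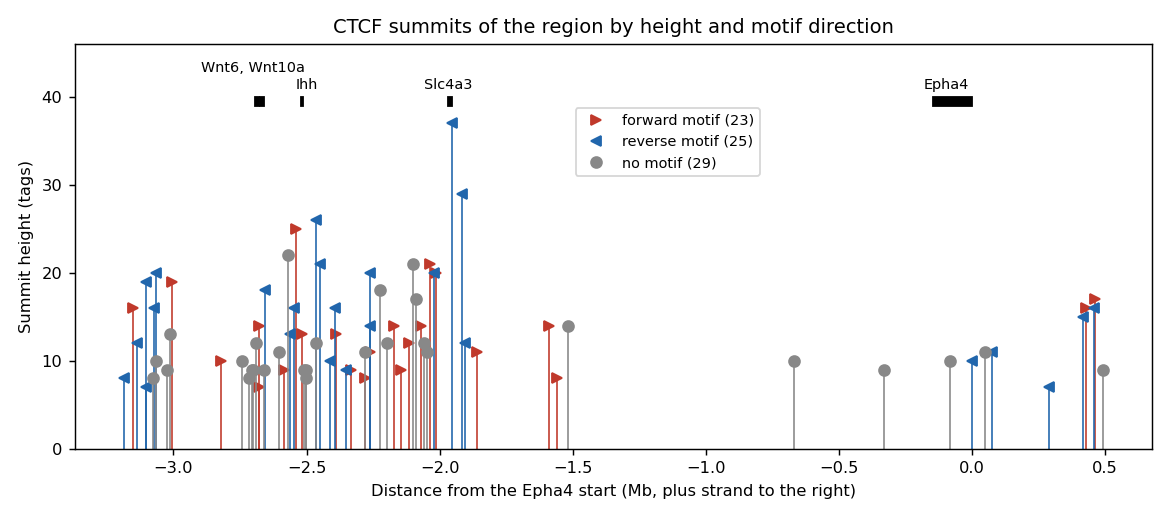
Height of the 77 CTCF summits (tags, vertical axis) along the stretch, as distance from the Epha4 start in Mb, with triangles for the direction of the motif and grey circles for summits without one. Summits are crowded up to Slc4a3 and sparse around Epha4, and the tallest, 37 tags, stands at Slc4a3.

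The sites were spread very unevenly. The gene-rich part, from the first base to the end of Slc4a3, spans 1.24 Mb and held 59 peaks, 47.6 per Mb. Epha4 and its gene-poor flanks span 2.45 Mb and held the other 18, or 7.34 per Mb. Within the gene-rich part the 500 kb before Wnt6 had 17 peaks, the 179.8 kb from Wnt6 to Ihh had 12, which is 66.7 per Mb, and the 560.5 kb from Ihh to Slc4a3 had 30. Protein-coding gene starts numbered 18, 7 and 24 in these stretches and 1 in all the rest. The order of the 3 stretches was not the same for both, as gene starts per Mb were 36, 38.9 and 42.8 and peaks per Mb 34.0, 66.7 and 53.5. Between the gene-rich part and the Epha4 part the heights differed little, with medians of 12 and 11, and the median scores were 125.2 and 88.28.

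Epha4 itself, ENSMUSG00000026235.7, spans chr1:77363760-77511663 on the minus strand, so that its start faces Pax3 and its end faces Slc4a3. No protein-coding gene starts in the 1805 kb between Slc4a3 and Epha4 or in the 586 kb between Epha4 and Pax3. In the 1805 kb there were 8 peaks, inside the gene 1 and in the 500 kb past its start 9, which is 4.43, 6.76 and 18.0 per Mb. The side of the start was thus the denser one.

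Close to Slc4a3, a sodium-independent anion exchanger gene, stood the most prominent sites of the flank. The peak at 75556259, in a UTR of Slc4a3, had the greatest height in the stretch, 37 tags, with a score of 365.54, 58 CTCF tags and 4 IgG tags, and a reverse motif. The next summit, 75594416, was 29 tags high with a score of 353.04, 48 CTCF tags and 1 IgG tag. It carried a reverse motif with a probability of 3.05e-09. After it came 75605739 with 12 tags, also reverse. At these 3 neighbouring summits the motif thus pointed away from Epha4, over 49.5 kb.

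From the next site on, the direction turned. Summit 75650289 had the best motif match of the Epha4 flanks, at a probability of 2.12e-10, and a forward direction. Its peak held 56 CTCF tags and 1 IgG tag over 1929 bp, yet the summit was only 11 tags high. The forward sites 75922593 and 75952600 were 14 and 8 tags high, with 20 and 13 CTCF tags against 1 and 2 IgG tags. These 3 summits with forward motifs span 302.3 kb, and the divergent pair that opens them, 75605739 and 75650289, lies 1758021 and 1713471 bp from the Epha4 body.

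Between 75952600 and the start of Epha4 lay 4 summits without a motif at the threshold. They were 75993977, 14 tags high, 76842256, 10 tags high, 77180855, 9 tags high, and 77430039, 10 tags high, the last in an intron of Epha4 and 81624 bp downstream of the start. CTCF tags in these peaks numbered 15, 20, 15 and 17, against 2, 3, 1 and 2 IgG tags. All but 77180855 passed the recount, where its probability was 1.23e-05. The best sequence at 76842256 just missed the motif threshold, at 1.93e-05, and read CCACCACTAGGGGTCCCTT in reverse, and that at 75993977 read ATGGCATCAGGTGGCAGTA in forward direction at 4.43e-05.

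The nearest summit to the Epha4 start was 77513113, 1450 bp upstream. It was 10 tags high with a score of 89.46, and its peak held 19 CTCF and 3 IgG tags, a ratio of 6.03 (1.77 to 31.8). Its motif was reverse, the direction of transcription of Epha4, and had a probability of 1.82e-07. Past it stood 77558674 without a motif and the reverse sites 77586095, 77801911 and 77927502, with heights of 11, 11, 7 and 15 tags. At the threshold, 4 reverse motifs thus followed each other over 414.4 kb. The best sequence at 77558674, within this run, was forward at a probability of 3.32e-05 and read CAAACACTAGAGGGAGTTT. The site at 77801911 rested on 16 CTCF tags and missed the recount at 1.23e-05.

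At the far end, 415839 to 493912 bp from Epha4, 5 summits stood close together. Their heights, in order, were 15, 16, 16, 17 and 9 tags, and the motif directions were reverse, forward, reverse and forward, with no motif at the last. The peak at 77975474 had the tallest summit of this side but a score of only 75. It held 32 CTCF and 10 IgG tags, a ratio of 3.05 (1.46 to 6.95). This ratio was the lowest in the Epha4 part, but its interval overlaps those of most other peaks there. The next summit, 78264319, lies past Pax3, so that the 259 kb from 78005575, Pax3 included, held none.

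**Figure D2:**
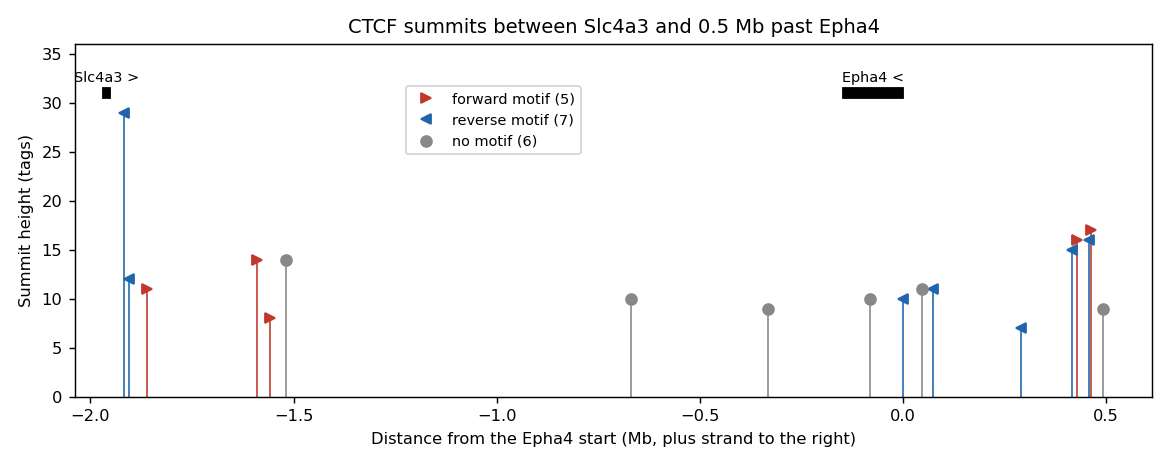
Summit height (tags) and motif direction at the 18 summits past Slc4a3, as distance from the Epha4 start in Mb; black bars are gene bodies and arrowheads their strand. A wide stretch holds no summit with a motif. The nearest 3 summit motifs to its left are forward and the nearest 4 to its right, from the Epha4 start on, are reverse. Reverse motifs stand beside Slc4a3, and both directions alternate at the right end.

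Epha4 therefore lay between summit motifs that face it, forward on the Slc4a3 side and reverse on the Pax3 side. The nearest ones were 1411160 bp away at 75952600 and 1450 bp away at 77513113. Only motifs outside the gene body were used for this, so those inside Wnt6, at 74831322, and inside Ihh, at 74995521, were passed over. For Wnt10a the nearest motifs, at 74834710 and 74854852, also faced the gene, from 3.38 and 4.1 kb. For Ihh the nearest outside the body, at 74973529 and 75047257, did so from 18.4 and 49.0 kb. At Wnt6 both neighbours outside the body, 74690662 and 74834710, were forward. So 3 of the 4 genes lay between facing motifs, where 27.7% of 22166 protein-coding genes do, and the 4 are not independent of each other, since Wnt6 and Wnt10a share a site. Runs as long as those at Epha4, 3 forward and 4 reverse, were found at 162 genes (0.731%), a count whose rule was chosen after the runs were seen. With motifs accepted at a probability of up to 1e-04, Epha4 and Wnt10a lost their facing pair and Ihh alone kept it, because 76842256 then counted as reverse and 74852965 as forward. The forward sequence at 77558674 then also broke the run of 4 reverse motifs. With only peaks of a score of at least 100, Epha4 still lay between facing motifs, but the pair was 75922593 and 77927502. The second of these lies 415839 bp from the gene. It alone of the run of 4 reverse sites scored that high, as the others had scores of 89.46, 80.24 and 61.04.

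The flank toward Slc4a3 also held the longest interval without a summit, 848 kb from 75993977 to 76842256. Of the 33736 gaps between neighbouring summits in the genome, 0.963% are as long, and the median gap is 25.6 kb. The next longest gaps of the stretch, 339, 272 and 249 kb, lay in the same flank or reached into Epha4 and correspond to 4.04%, 5.45% and 6.15% of all gaps. In the longest gap 2071 CTCF and 2837 IgG tags were counted, a ratio of 0.695, so reads mapped there in both libraries. Among 6016 windows of 300 bp between Slc4a3 and Epha4, 9 passed the recount threshold and all 9 were in deposited peaks. No window outside peaks passed it in any of the stretches. The peaks were called from the same tags, so these counts cannot tell whether sites were missed.

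Motif sequences were present between Slc4a3 and Epha4 all the same. A scan found 120 motifs there, 66.5 per Mb against 85.1 on chromosome 1, and 7 of them (5.83%) lay in peaks, against 12.1% on chromosome 1. Those outside peaks had 1.20 times as many CTCF as IgG tags (0.94 to 1.53), scaled by library totals. All sequence outside peaks there had a ratio of 0.740 (0.713 to 0.769), and the interval at the motifs lies above it. On chromosome 1, motifs outside peaks had a ratio of 1.84 (1.8 to 1.88). From Wnt6 to Ihh, 12 of 48 motifs (25%) were in peaks. Motifs outside peaks had a ratio of 5.3 (2.98 to 10.1) there, against 1.87 (1.68 to 2.09) over all sequence outside peaks. In both stretches the 2 kinds of ratio were counted differently. Tags at a motif were those within 150 bp of it, so windows beside a peak can hold tags of that peak. The ratios over all sequence leave such tags out. How much of the excess at motifs comes from peak edges was not tested. Inside Epha4, 0 of 9 motifs lay in a peak, which allows a share of up to 33.3%.

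Wnt6, ENSMUSG00000033227.6, at chr1:74818466-74831893 on the plus strand, held 2 summits. The first, 74822911, is intronic and 4445 bp past the start, 12 tags high with a score of 153.6, and its peak held 34 CTCF tags and 1 IgG tag but no motif. The second, 74831322, lies in a UTR at the end of the gene and is the weakest peak of the stretch by score, 50.54, with 11 CTCF and 2 IgG tags. It carries a motif with a probability of 1.7e-08 and did not pass the recount, at 2.39e-04. Motif quality and tags thus did not go together at these sites. The nearest summit upstream, 74810131, was 8335 bp from the start and 9 tags high, with 32 CTCF and 7 IgG tags.

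Wnt10a, ENSMUSG00000026167.8, at chr1:74838090-74850753 on the plus strand, had no summit in its body and a pair of taller ones outside. At 74834710, 3380 bp upstream of the start, the height was 14 tags and the score 211.16, with 49 CTCF and 5 IgG tags and a forward motif. At 74854852, past the end of the gene, the height was 18 tags and the score 346.25, the fifth highest of the stretch, with 64 CTCF and 3 IgG tags and a reverse motif. These sites enclose Wnt10a and leave Wnt6 outside. A lower summit, 74852965, stood 14875 bp past the start, with 9 tags, 20 CTCF and 3 IgG tags in its peak and no motif.

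Past 74854852, 6 more summits lay before Ihh. They were spread over Cdk5r2, which encodes an activator of the kinase Cdk5, Fev, an ETS factor of serotonergic neurons, Cryba2 and Ccdc108. The highest score of the stretch, 464.97, belonged to 74940202, 485 bp upstream of Cryba2, a lens crystallin gene. Its peak held 82 CTCF and 3 IgG tags, a ratio of 26.0, and its summit was 22 tags high. No motif passed the threshold there, the best sequence being TCGCCGCCAGGCGGCACTA, forward at chr1:74940233-74940251, with a probability of 1.94e-05. The others were 74906674 (11 tags high, no motif), 74927540 (9 tags, forward), 74948415 (13 tags, reverse), 74962598 (16 tags, reverse) and 74973529 (25 tags, forward). The last, in an intron of Ccdc108, had 38 CTCF tags and 1 IgG tag and was the tallest between Wnt6 and Ihh.

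Ihh, ENSMUSG00000006538.8, at chr1:74991891-74998246 on the minus strand, held an intronic summit at 74995521, 2725 bp past its start. This summit was 13 tags high with a score of 161.46, and its peak held 32 CTCF and 2 IgG tags and a forward motif, which points against transcription of Ihh. Upstream, 75000288 stood 2042 bp from the start, 9 tags high with 14 CTCF and 3 IgG tags and no motif. The ratios of these sites were 15.2 (3.89 to 131) for the intronic and 4.44 (1.24 to 24.1) for the upstream one, with intervals that overlap. On the far side, Nhej1, a gene of DNA end joining, held 75047257, 26 tags high with a reverse motif, and 75063910, 21 tags high with a score of 362.51, 68 CTCF tags, 7 IgG tags and a reverse motif.

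**Figure D3:**
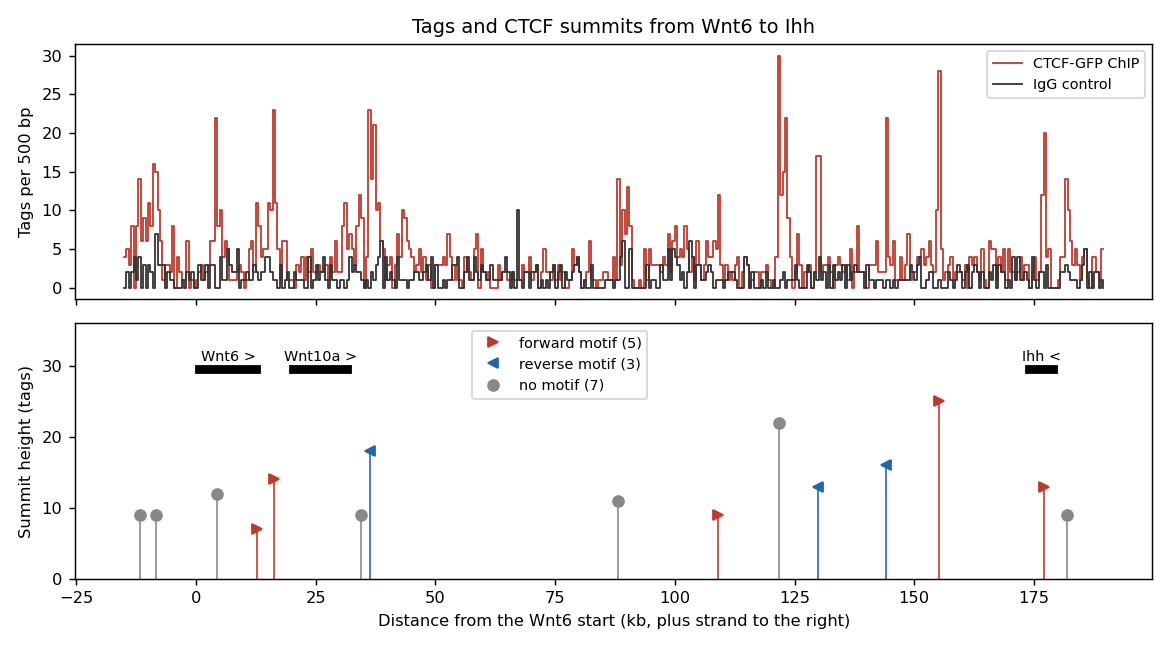
Tags per 500 bp of the CTCF (red) and IgG (black) libraries, and below it summit height (tags) with motif direction, from Wnt6 to Ihh as distance from the Wnt6 start in kb. CTCF tags rise at the summits and the IgG line does not follow them, and the motifs next to Wnt10a face it.

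The remaining summits are given by stretch. Before Wnt6, heights ran from 7 to 20 and scores from 55.66 to 287.25, 9 of 17 had a motif, 3 forward and 6 reverse, and 11 of 17 passed the recount. From Ihh to Slc4a3, heights ran from 8 to 37 and scores from 53.64 to 365.54, 19 of 30 had a motif, 10 forward and 9 reverse, and 28 passed the recount. The 500 kb before Wnt6 thus held 6 of the 11 summits of the stretch that missed it. By annotation, 43 of the 77 summits lay between protein-coding genes, and 4 more did so within 1 kb upstream of a start. Introns held 25, coding exons 3 and UTRs 2. At the borders of the stretch, the last summits inside were 74326069 and 78005575, 8 and 9 tags high, and the next ones outside were 74257265 and 78264319, 9 and 15 tags high.

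Several motifs shared more than the consensus. The 11 bases CAGAAGAGGGC stood at the same place in 9 of the 48 motifs (18.8%), among them 77801911 and 77927502 in the flank of Epha4. Over the motifs at all summits the share was 17.1%, so the core was about as frequent here as in the whole list. This core was chosen after the sequences had been seen. An example before Wnt6 and an example near Dnajb2 are identical over the 29 bases shown.
Summit 74373569, chr1:74373696-74373714, minus strand: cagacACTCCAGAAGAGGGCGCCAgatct
Summit 75229395, chr1:75229247-75229265, plus strand: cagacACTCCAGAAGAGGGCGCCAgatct

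Among motifs on chromosome 1 with a probability of at most 1e-07, 210 of 601 with this core (34.9%) lay in a peak, and 491 of 716 without it (68.6%) did. In the stretch around the 4 genes, the counts were 6 of 22 and 15 of 18. Over all motifs at the threshold of 1e-05 the shares lay close together, with 10.1% of 3441 motifs with the core and 12.6% of 13340 without it in peaks on chromosome 1, and 10.2% and 15.0% in the stretch. CTCF motifs are known to be spread in rodents by copies of B2 repeats, and whether these sites lie in such copies was not tested, as repeats are not annotated in the genome used.

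Over whole peaks of the stretch, 2214 CTCF and 237 IgG tags were counted, a depth-scaled ratio of 8.89 (7.78 to 10.2), and on chromosome 1 the ratio was 8.47. As the peaks were called from these tags, this describes the calls. The ratio was 13.3 (9.15 to 19.9) from Wnt6 to Ihh, 14.9 (8.54 to 28.5) between Slc4a3 and Epha4 and 6.43 (4.45 to 9.58) past the Epha4 start. The intervals of the last 2 stretches overlap.

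Outside the peaks the libraries differed by stretch. From Wnt6 to Ihh the ratio of CTCF to IgG tags was 1.87 (1.68 to 2.09), before Wnt6 1.28 (1.20 to 1.37) and from Ihh to Slc4a3 1.38 (1.3 to 1.47). Between Slc4a3 and Epha4 it was 0.740 (0.713 to 0.769), in Epha4 0.748 (0.657 to 0.851) and past its start 0.795 (0.742 to 0.851), and on chromosome 1 it was 0.855 (0.852 to 0.858). Over the whole stretch from before Wnt6 to past Epha4 it was 0.95 (0.927 to 0.974). The intervals of the gene-rich stretches do not overlap with those around Epha4. IgG tags ranged only from 29.2 to 37.0 per 10 kb over the 6 stretches, and CTCF tags, peaks included, from 28.4 to 77.4. The GC content was also higher in the gene-rich part. It was 45.8% before Wnt6, 49.5% between Wnt6 and Ihh and 49.0% from Ihh to Slc4a3. Around Epha4 it was 41.2% between Slc4a3 and Epha4, 42.8% in Epha4 and 40.8% past the Epha4 start. The part of GC content in the result was not tested.

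**Figure D4:**
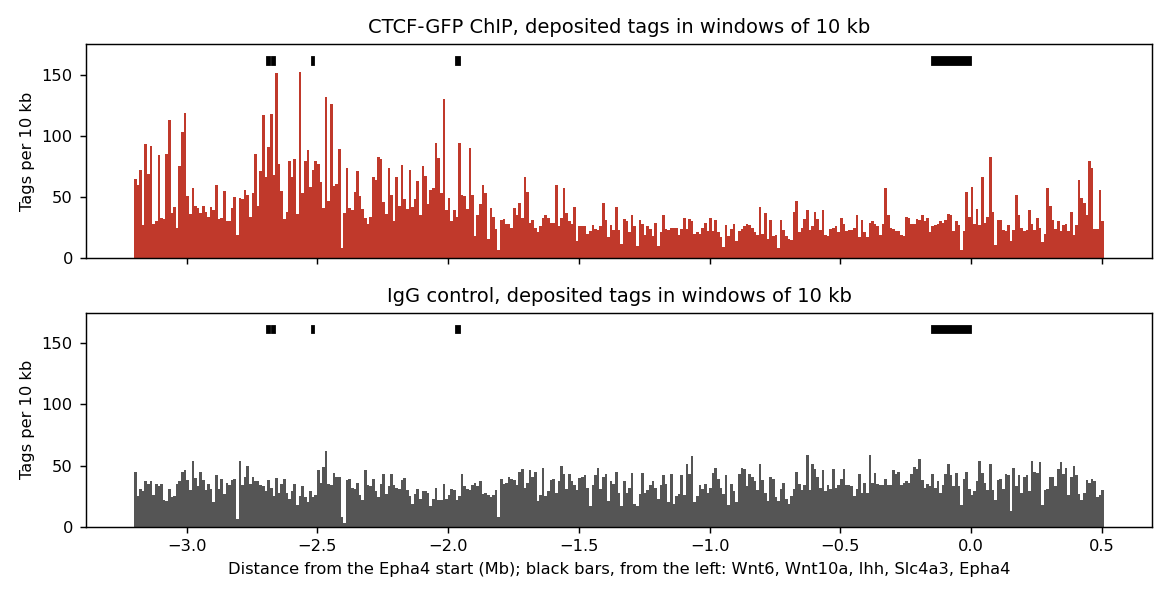
CTCF tags (top) and IgG tags (bottom) in windows of 10 kb, unscaled, along the stretch as distance from the Epha4 start in Mb. CTCF counts reach 152 in the gene-rich part and IgG counts stay at or below 62 throughout.

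**Figure D5:**
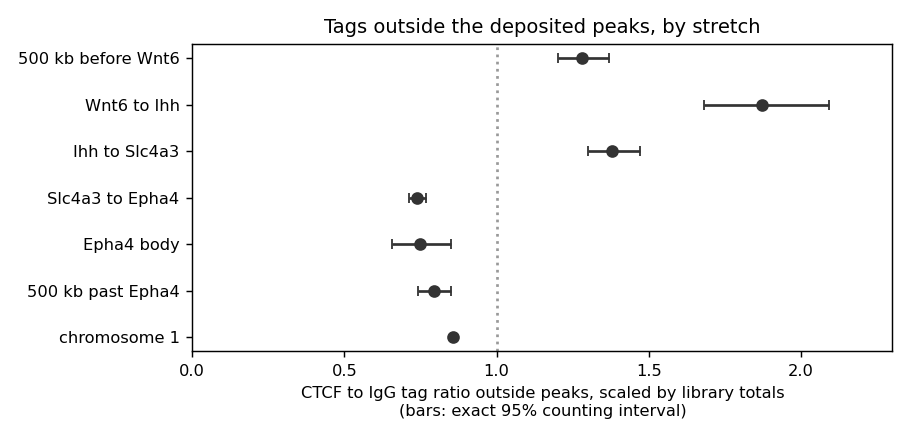
Ratio of CTCF to IgG tags, scaled by library totals, outside the deposited peaks for each stretch and for chromosome 1, with exact 95% counting intervals. The 3 gene-rich stretches lie above 1, and Epha4 with both its flanks lies below 1.

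Over the gene bodies, peaks included, the counts were as follows. Wnt6 had 118 CTCF and 49 IgG tags, Wnt10a 80 and 32, Ihh 53 and 13, and Epha4 441 and 542. The ratios were 2.29 (1.63 to 3.27), 2.38 (1.56 to 3.71), 3.88 (2.09 to 7.76) and 0.775 (0.682 to 0.88). The intervals of Wnt6, Wnt10a and Ihh overlap, and that of Epha4 lies below them. Without the peaks the ratios were 1.51 (1.03 to 2.24) for Wnt6, 2.38 again for Wnt10a, which holds no peak, 1.82 (0.838 to 4.17) for Ihh and 0.748 (0.657 to 0.851) for Epha4. The interval of Ihh then overlaps that of Epha4, and those of Wnt6 and Wnt10a do not. Within 1 kb of the start, Epha4 had 11 CTCF and 2 IgG tags, a ratio of 5.24 (1.14 to 48.6), with no peak called in that window. The window ends at 77512663, and the peak with its summit at 77513113 begins close by, at 77512823. Whether these tags belong to that peak was not tested. Wnt6 had 4 and 5 tags at its start, Wnt10a 6 and 3, and Ihh 3 and 1, too few for an order.

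Within 100 kb of the start, Epha4 had 4 summits, the median of all protein-coding genes, and Wnt6, Wnt10a and Ihh had 10, 11 and 13, above the upper quartile of 8. CTCF tags in that window of 20 bins of 10 kb came to 710 for Epha4, 1392 for Wnt6, 1421 for Wnt10a and 1499 for Ihh. The windows of Wnt6, Wnt10a and Ihh share most of their sequence. The genes on other chromosomes whose binned tags ran most alike were Psg16 and Gm14177 for Epha4 (Pearson r of 0.798 and 0.785), Sephs1 and Aipl1 for Wnt6 (0.857 and 0.767), Whrn and Amhr2 for Wnt10a (0.776 and 0.75) and Lmtk2 and Ggnbp2 for Ihh (0.753 and 0.707). These are the highest of 21129 genes over 20 bins and are given as a description.

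A summit lay within 10 kb of the start of all 4 genes, against 38.4% of all protein-coding genes, and within 1 kb of none. Distances were 1.45 kb for Epha4, 2.04 kb for Ihh, 3.38 kb for Wnt10a and 4.45 kb for Wnt6. Of the 50 genes that start in the stretch, 30 (60.0%) had one within 10 kb. Among related genes elsewhere, 14 of 19 Wnt ligands had a summit within 10 kb, from 472 bp at Wnt7a to 54.5 kb at Wnt5b, and 10 of 14 Eph receptors did, with Epha5 and Epha7 the farthest at 639 and 712 kb. For the ephrins, the ligands of Epha4, the count was 6 of 8, for hedgehog pathway genes 7 of the 15 found in the annotation, with Gli3 at 252 kb, and for limb patterning genes 8 of 17, with Shh at 2.82 kb and Pax3 at 70.6 kb. The lists contain the members themselves and were described by counts only.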

How the data were processed

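The authors deposited, per the labels with mm9 coordinates, a count of 1 per aligned tag for each library, and for CTCF the MACS 1.4 peaks with a score (minus 10 times log10 p, lowest 50) and the summits with a height, which is the signal of the tag pileup. The aligner is not given in the sources used here. The members and lists were chosen with earlier results of these data known. Fragments measured 186 bp at the 1000 highest scoring peaks, so each tag was shifted 93 bp inward and counted in Python 3.11.15 (pandas 2.3.3, pysam 0.24.0, scipy 1.17.1, numpy 2.4.6, plots by matplotlib 3.10.9). The control was taken as IgG, as its antibody label says. Ratios were scaled by library totals, with exact conditional (Clopper-Pearson) 95% intervals. The recount was a one-sided Poisson probability in 300 bp at each summit, with the highest IgG rate among 1, 5 and 10 kb and the genome (effective size 1870000000) as expectation. The CTCF matrix came from 192 CTCF motif sequences in the supplementary motif sheet for sites of RAD21, a cohesin subunit, in ESCs. It was built by adding 1 pseudocount to every column, for a background of 0.29 (A, T) and 0.21 (C, G). Genes were those of GENCODE M1 and sequence that of NCBI m37, and genes were named if members, their neighbours, or nearest to a described summit. The 5 highest scores, all sites around Epha4 and all from Wnt6 to Ihh were described in full. Likeness was Pearson r of log2(tags + 1). Scripts were tested on simulated data.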

Additional observations from a re-analysis of the deposited data

How the results depend on the processing

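Over 15 results, 43 alternatives were run, and 27 left the value within its counting interval or within 1.5 times the count. With scores of at least 100, 41 peaks remained in the stretch and 73.2% of them had a motif. Motifs were found at 81.8% of summits with a probability of up to 1e-04 and at 24.7% within 50 bp. The members between facing motifs, a result added after seeing the data together with its 3 alternatives, numbered 1 at the looser probability. The ratio in peaks was 15.9 within 150 bp of the summits. Outside peaks of the whole stretch it was 0.95 in the report, 1.06 when scaled by the tags outside all peaks, which turns it above 1, and 0.901 with 1 kb more left out on each side. At a probability of 1e-10, 30 summits passed the recount. Within 1 kb of the start, summits were found for 0 members, 2 Wnt ligands, 3 hedgehog genes, 3 Eph receptors, 2 ephrins and 1 limb patterning gene, against 7.91% of all genes, and within 50 kb for 15 of 17 limb patterning genes (88.2%), against 77% of all. No paired analysis was possible because each antibody has only 1 library. Peaks of 9 tags or fewer, 21 of the 77, rest on few tags, and variation between cultures was not measured.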
